A study of Mus musculus with 9 samples.

Results

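The genes of the Usher syndrome proteins were followed in bulk RNA-Seq of the mouse retina at P42. The 8 members, *Ush1c*, *Ush1g*, *Myo7a*, *Cdh23*, *Pcdh15*, *Adgrv1*, *Clrn1* and *Cib2*, were found by gene symbol among the 25239 gene names of the deposited tables, and each was 1 row in all 9 tables. All mice were C57BL/6J, and a pair of retinas from 1 mouse made 1 library. The groups were +/+ mice, Cre/+ mice with 1 *Rbpms*-CreERT2 allele and Cre/Cre mice with 2 such alleles, with 3 libraries of each, and the series' design text says that the genotypes came from the same litters, without naming the litter of each mouse. In the knock-in allele, a sequence for P2A and CreERT2 follows the coding sequence of RBPMS, which binds RNA in retinal ganglion cells (RGCs), so CreERT2 is made where *Rbpms* is. Tamoxifen, which activates CreERT2, is not among the labels of these libraries. The question put to the data was whether the knock-in alleles went with a change in the levels of the Usher genes.

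Usher syndrome joins hearing loss with a degeneration of the retina. In the hair cells of the inner ear its proteins form 1 network that links stereocilia by fibrous cadherins, ties these links to actin through scaffolds and a myosin motor, and so carries force to the transduction channel. In the retina the same proteins are placed at the periciliary membrane of photoreceptors, at synapses, and in the pigment epithelium, where MYO7A moves melanosomes.

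Abundance was given as TPM, a level per length of transcript scaled to the total of the library, which can be set side by side between genes. The libraries held 4.05 to 4.65 aligned gigabases. Rod markers led the marker lists, with sums of 43410 to 52398 TPM over 8 genes, and 7 Müller glia genes summed to 3610 to 4397 TPM and 8 cone genes to 2589 to 2882. The knock-in gene *Rbpms* had a mean of 41.7 ± 2.85 TPM for +/+, 32.2 ± 0.888 for Cre/+ and 21.0 ± 2.80 for Cre/Cre (SD, n = 3). The Cre/Cre difference was -0.96 on the log2(TPM + 1) scale (limma, adjusted p = 0.000581), and the Cre/+ difference of -0.36 did not pass (limma, adjusted p = 0.355). The 9 RGC markers, *Rbpms* among them, summed to 1554 to 1642 TPM in +/+, 1482 to 1537 in Cre/+ and 1132 to 1365 in Cre/Cre, without overlap between the groups and with none of the markers at 0. In Cre/Cre against +/+ all 9 lay below 0 on the log2 scale (median -0.34). An unadjusted p under 0.05 (limma) was found for 8 of them, beside 5.39% of all genes tested that were lower at this level. Only *Rbpms* among the 9 passed the adjusted p (limma). All 8 rod markers and all 6 amacrine cell markers also lay below 0 in this contrast (medians -0.07 and -0.06). For these lists, 0 genes had an unadjusted p under 0.05 (limma). Cre/Cre replicate 1 stood apart, where Rn45s, the ribosomal RNA precursor, was at 92052 TPM, while the other 8 libraries had 827 to 3359, which lowers the TPM of every other gene in that library. *Xist*, expressed in females, was at 516 to 585 TPM in 6 libraries and at 2.08 to 3.16 in Cre/+ replicate 3 and Cre/Cre replicates 1 and 3, so the sexes were not balanced over the genotypes. In bulk retina, fewer cells of a type and less RNA per cell cannot be told apart. The paper counted RGCs in stained retinas of these genotypes by RBPMS and POU4F1, and reports no significant difference in their number. It also reports a similar intensity of RBPMS staining. From its RNA-Seq it reports no significant difference in RGC marker genes, *Rbpms* among them. Its limits were an adjusted p under 0.05 together with a fold change above 2. The *Rbpms* difference of -0.96 given here passed the adjusted p alone and fell short of a 2-fold change.

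The 8 genes spanned a wide range of levels in the retina. In order of the mean over the 9 libraries they were *Pcdh15* (102 TPM), *Adgrv1* (44.1), *Myo7a* (19.5), *Cib2* (15.5), *Clrn1* (6.92), *Ush1g* (2.88), *Cdh23* (0.451) and *Ush1c*, which was listed at 0 in 5 libraries. The ranges over libraries overlapped for 2 pairs of neighbours, *Myo7a* with *Cib2* and *Cdh23* with *Ush1c*, although the first of each pair was the higher in all 9 libraries. Of the 15198 genes with a mean of at least 1 TPM, 86.6% lay below *Pcdh15* and 65.5% below *Adgrv1*, whereas 11.7% lay below *Ush1g*. *Cdh23* and *Ush1c* did not reach this mean. The 8 genes summed to 173 to 238 TPM, of which *Pcdh15* alone held 49.4% to 61.1%. This share is for TPM only, since the level of *Pcdh15* beside the others depended on the measure, as given below.

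**Figure D1:**
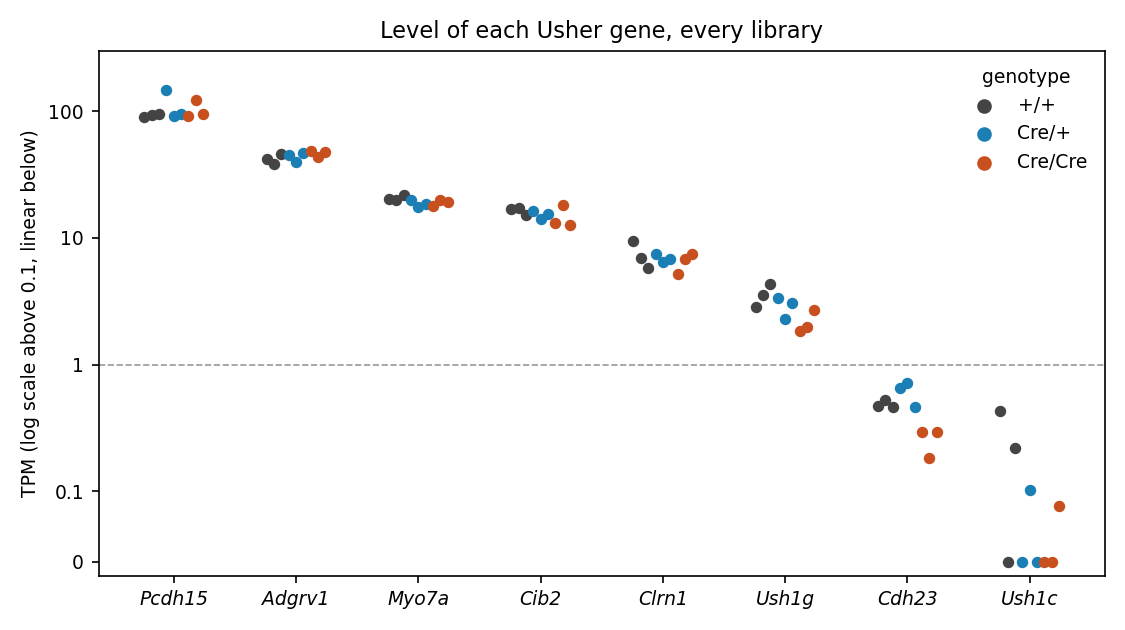
Level of each Usher gene in TPM (vertical axis, logarithmic above 0.1 and linear below) in every library, coloured by genotype, with a dashed line at 1 TPM, the mean a gene needed to be tested. *Pcdh15* lies highest, with a mean of 102 TPM, and *Cdh23* and *Ush1c* lie below 1 TPM in all 9 libraries.

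The tip link that joins neighbouring stereocilia is built of the cadherins PCDH15 and CDH23, and their genes stood near opposite ends of this order. *Pcdh15* lies on chr10:73821867-74649732 (mm10, plus strand), and *Cdh23* on chr10:60302750-60696490 (minus strand). The 250 bases before the start of each are shown, since the pair encodes the partners of 1 link at levels far apart. They are RefSeq promoter sequences of GRCm38.p6, the assembly of mm10, at chr10:73821617-73821866 (plus strand) for *Pcdh15* and chr10:60696491-60696740 (minus strand) for *Cdh23*. Capitals mark the TATA box TATAAA and the homeodomain core TAATTG, both searched on both strands.
Pcdh15: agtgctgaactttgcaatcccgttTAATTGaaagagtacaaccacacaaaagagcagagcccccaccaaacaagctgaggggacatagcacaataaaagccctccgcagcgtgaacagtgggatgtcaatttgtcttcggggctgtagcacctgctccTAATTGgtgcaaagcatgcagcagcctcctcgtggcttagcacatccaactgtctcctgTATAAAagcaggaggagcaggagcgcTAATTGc
Cdh23: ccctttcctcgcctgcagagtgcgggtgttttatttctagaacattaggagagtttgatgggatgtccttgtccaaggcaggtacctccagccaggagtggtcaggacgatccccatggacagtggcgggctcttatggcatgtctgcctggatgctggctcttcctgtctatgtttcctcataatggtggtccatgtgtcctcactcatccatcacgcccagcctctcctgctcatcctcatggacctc
The *Pcdh15* window held 1 TATAAA and 3 TAATTG, and its GC content was 50.4%. The *Cdh23* window held neither motif, at a GC content of 54.4%. Of 32851 RefSeq promoter windows of this length, 12.4% held TATAAA and 7.17% held TAATTG, and the median GC content was 52.4%. The RefSeq gene of *Pcdh15* reaches farther upstream than the deposited span, so this window is that of the start the tables use.

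*Pcdh15* measured 90.3, 93.3 and 94.6 TPM in the +/+ libraries, 146, 92.1 and 95.1 in Cre/+, and 92.4, 123 and 95.2 in Cre/Cre. Cre/+ replicate 1 and Cre/Cre replicate 2 were high, the other 7 libraries lay close together, and the groups overlapped. The log2 fold change was 0.22 for Cre/+ (95% interval -0.18 to 0.63) and 0.15 for Cre/Cre (-0.25 to 0.55), each against +/+, and neither passed the test (limma, adjusted p = 0.655 and 0.935). Without Cre/+ replicate 1 the Cre/+ value was 0.01, and without Cre/Cre replicate 2 the Cre/Cre value was 0.02. With *Xist* as a covariate the values were 0.33 and 0.37. The immediate early genes *Fos* and *Egr1*, named here after their values were seen, were highest in the same pair of libraries. *Fos* was at 74.0 TPM in the first and 94.4 in the second, while the rest had 22.0 to 56.1. *Egr1* was at 70.7 and 126.8 TPM, against 12.8 to 32.8. The summed pigment epithelium markers were also highest in Cre/+ replicate 1 (96.6 TPM), and the lens markers in Cre/Cre replicate 2 (1225 TPM). The part of these genes in the level of *Pcdh15* was not tested.

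*Cdh23* measured 0.469, 0.528 and 0.464 TPM in +/+, 0.648, 0.714 and 0.462 in Cre/+, and 0.296, 0.183 and 0.295 in Cre/Cre. All 3 Cre/Cre libraries were lower than every library of the other genotypes, while +/+ and Cre/+ overlapped. The Cre/Cre mean was 53.0% of that in +/+ and 42.4% of that in Cre/+. In a fit without the filter on low values (20504 genes) the log2(TPM + 1) difference was -0.24 against +/+ (limma, adjusted p = 0.753) and -0.35 against Cre/+ (limma, adjusted p = 0.791), so neither passed. The exact two-sided permutation test gave p = 0.1 for both, the smallest value that 3 against 3 libraries allow. The coverage was thin, with a mean of 0.231 to 0.875 reads over each base of the gene, and the counting error at such depth is unknown from these tables. *Vsir*, which lies within *Cdh23* on the opposite strand, was at 0.966 to 1.93 TPM. The libraries kept the strand of the RNA, but whether the counting used it is not given in the sources used here.

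The scaffold and motor genes came next. USH1C (harmonin) binds the tails of the cadherins, USH1G (SANS) is a scaffold at the upper end of the tip link, and MYO7A is the myosin that pulls on it. CIB2, a calcium-binding protein, belongs to the transduction channel complex of hair cells.

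*Myo7a* (chr7:98051054-98119493, minus strand) measured 20.4, 19.9 and 21.7 TPM in +/+, 19.95, 17.6 and 18.5 in Cre/+, and 17.8, 19.9 and 19.3 in Cre/Cre. The Cre/Cre libraries lay below those of +/+ by the smallest of margins, 19.86 against 19.88 TPM at the nearest. The log2 fold change was -0.14 for Cre/+ (95% interval -0.34 to 0.06; limma, adjusted p = 0.593) and -0.12 for Cre/Cre (-0.32 to 0.09; limma, adjusted p = 0.883). *Myo7a* was the steadiest of the 6 genes tested, with a residual SD of 0.0759 on the log2 scale against a median of 0.130 over all genes tested. It is also known from the pigment epithelium, whose 12 markers summed to 25.8 to 96.6 TPM. That sum was lowest in +/+ replicate 3, where *Myo7a* was highest, and highest in Cre/+ replicate 1. These are single libraries, and the part of the pigment epithelium in the level of *Myo7a* was not tested.

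*Ush1g* (chr11:115315192-115321918, minus strand) measured 2.83, 3.57 and 4.31 TPM in +/+, 3.33, 2.28 and 3.08 in Cre/+, and 1.85, 1.98 and 2.70 in Cre/Cre. Every Cre/Cre library was lower than every +/+ library, and Cre/+ overlapped both. The Cre/Cre mean of 2.18 ± 0.457 TPM was 61.0% of the +/+ mean of 3.57 ± 0.740 (SD, n = 3). The log2 fold change was -0.52 (SE 0.19, 95% interval -0.93 to -0.11), the only one among the 6 tested Usher genes with an unadjusted p below 0.05, and it did not pass the correction (limma, adjusted p = 0.655). Among all genes tested, 5.39% were lower in Cre/Cre at this unadjusted level. The exact two-sided permutation p was 0.1, again the smallest possible. Without Cre/Cre replicate 1, the library rich in Rn45s, the value was -0.45 (limma, adjusted p = 0.524). *Otop2* spans the whole of *Ush1g* on the opposite strand and was at 0.190 to 0.823 TPM, highest in Cre/Cre replicate 3. The summed RGC markers, like *Ush1g* and *Cdh23*, were lower in every Cre/Cre library than in every +/+ library, and their part in these levels was not tested.

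*Cib2* (chr9:54544794-54560190, minus strand) measured 17.0, 17.3 and 15.3 TPM in +/+, 16.3, 14.0 and 15.6 in Cre/+, and 13.0, 18.1 and 12.7 in Cre/Cre. The Cre/Cre group held both the highest and the lowest library of all 9, so the groups overlapped. The log2 fold change was -0.10 for Cre/+ (95% interval -0.38 to 0.17) and -0.18 for Cre/Cre (-0.46 to 0.09), with adjusted p = 0.784 and 0.858 (limma). The Cre/Cre value was -0.34 without Cre/Cre replicate 2, -0.11 without replicate 1 and -0.093 without replicate 3, and -0.036 with *Xist* as a covariate. Its promoter is shown because it was unlike those of the cadherins in base composition. The window lies at chr9:54560191-54560440 (GRCm38.p6, minus strand, RefSeq), and capitals mark the GC box GGGCGG, which is read CCGCCC on the strand printed.
Cib2: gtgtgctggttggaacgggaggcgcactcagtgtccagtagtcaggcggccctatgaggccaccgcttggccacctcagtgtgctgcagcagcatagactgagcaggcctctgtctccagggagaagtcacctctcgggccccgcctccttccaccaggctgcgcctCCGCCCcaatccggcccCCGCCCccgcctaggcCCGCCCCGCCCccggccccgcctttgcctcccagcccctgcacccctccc
It held 4 GC boxes, 2 of them overlapping, at a GC content of 71.2%. GGGCGG on either strand was found in 32.7% of the 32851 windows. Among the 7 members with a RefSeq window, *Myo7a* and *Ush1c* also held it, whereas *Pcdh15*, *Cdh23*, *Adgrv1* and *Clrn1* did not. For *Myo7a* this is the window at chr7:98119494-98119743, and its other window, at chr7:98109249-98109498, did not hold it. TAATCC, the core of the site of the photoreceptor factors CRX and OTX2, was in no window of these 7 members and in 6.25% of all windows.

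*Ush1c* (chr7:46195351-46238490, minus strand) was barely present. It was listed at 0.428, 0 and 0.220 TPM in +/+, 0, 0.102 and 0 in Cre/+, and 0, 0 and 0.0791 in Cre/Cre. In the fit without the filter the log2(TPM + 1) difference against +/+ was -0.22 for Cre/+ and -0.23 for Cre/Cre. Neither passed (limma, adjusted p = 0.610 and 0.813). Its coverage never exceeded 0.211 reads for each base, and the size of difference that this depth could show was not worked out.

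**Figure D2:**
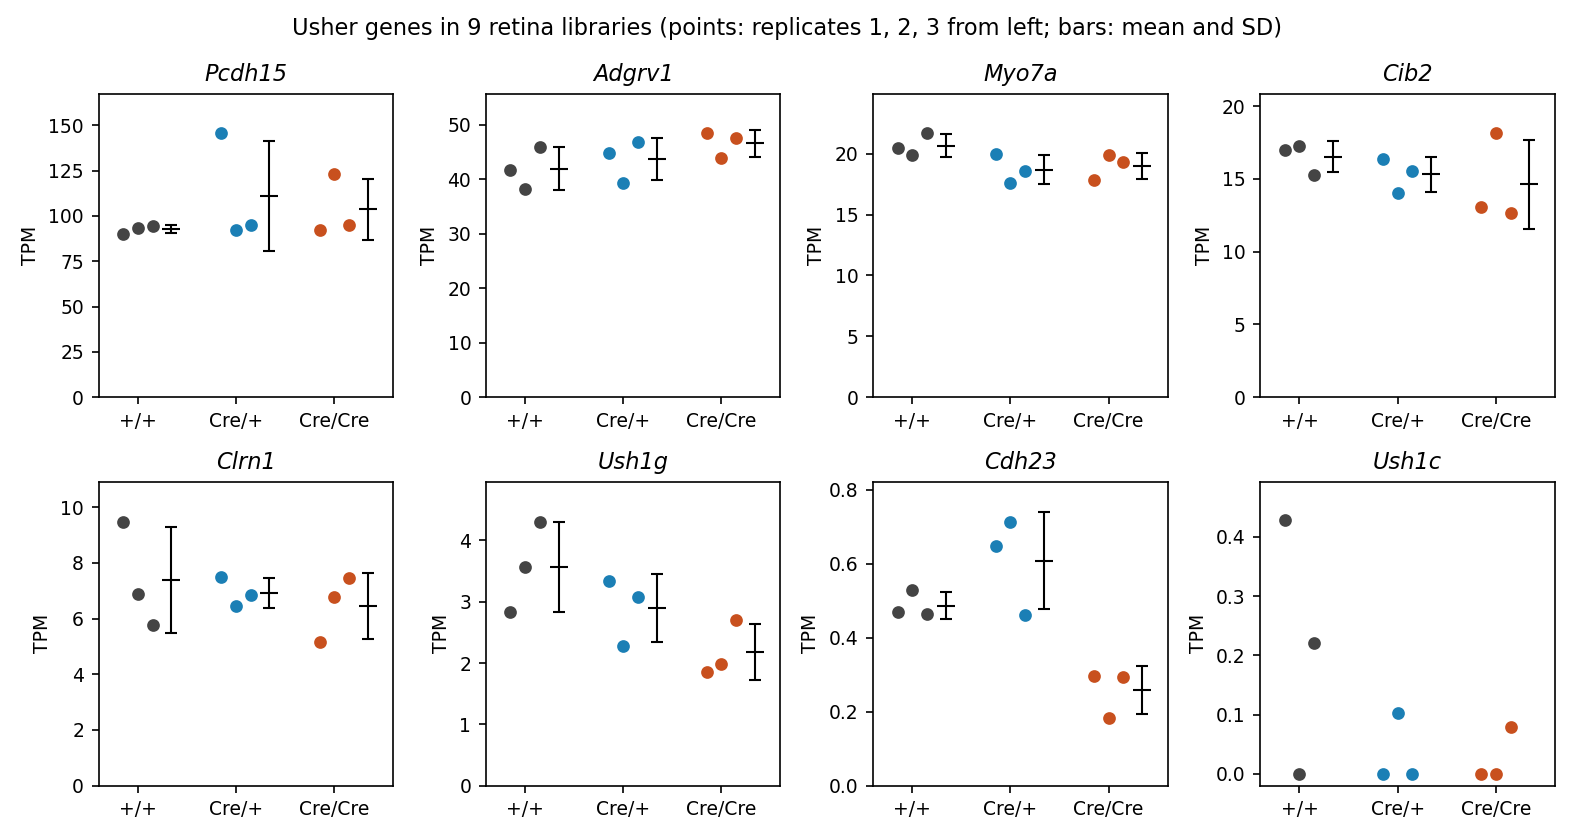
TPM of each Usher gene (vertical axes, each from 0 at its own scale) in the 3 libraries of each genotype, with replicates 1, 2 and 3 from left to right and black bars for the mean and SD, which are left out for *Ush1c*. The Cre/Cre points of *Ush1g* and *Cdh23* lie below all +/+ points, and the high points of *Pcdh15* at 146 and 123 TPM are single libraries.

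ADGRV1, a very large adhesion receptor of the ankle links and of the periciliary membrane, and CLRN1 (clarin), a small membrane protein, stand outside the tip link complex. *Adgrv1* (chr13:81095068-81633144, minus strand) measured 41.7, 38.2 and 46.0 TPM in +/+, 44.9, 39.4 and 46.8 in Cre/+, and 48.5, 43.9 and 47.6 in Cre/Cre. Its groups overlapped, and its log2 fold change of 0.06 for Cre/+ (95% interval -0.14 to 0.25) and 0.15 for Cre/Cre (-0.04 to 0.35) did not pass the test (limma, adjusted p = 0.843 and 0.818). *Clrn1* (chr3:58844028-58885212, minus strand) measured 9.49, 6.89 and 5.76 TPM in +/+, 7.51, 6.45 and 6.84 in Cre/+, and 5.15, 6.77 and 7.45 in Cre/Cre. The +/+ group alone covered nearly the whole range of *Clrn1*. Its log2 fold change was -0.06 for Cre/+ (95% interval -0.42 to 0.31) and -0.16 for Cre/Cre (-0.52 to 0.21), with adjusted p = 0.924 and 0.922 (limma). Without +/+ replicate 1, the highest library, both turned positive, at 0.12 and 0.02.

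In the test across all genes, 0 of the 6 Usher genes passed an adjusted p of 0.05 in any contrast (limma). The share of all 15198 genes that passed was 0.00658% for Cre/+ against +/+, 0.00658% for Cre/Cre against +/+ and 0.0132% for Cre/Cre against Cre/+. At an unadjusted p under 0.05, 0 of the 6 passed for Cre/+ and 1, *Ush1g*, for Cre/Cre against +/+, beside 10.7% and 6.97% of all genes, and 0 passed for Cre/Cre against Cre/+, beside 6.58% of all. On the log2(TPM + 1) scale, which shrinks changes of low genes, every 95% interval of these 6 genes stayed within a 2-fold change in both directions. With a pseudocount of 0.1 that of *Ush1g* in Cre/Cre reached past it, from -1.24 to -0.14. Their median log2 fold change was -0.08 for Cre/+ and -0.14 for Cre/Cre, and 4 of the 6 were below 0 in each, while the medians over all genes tested were 0.00145 and -0.0243. A slope over 0, 1 and 2 knock-in alleles gave the same p-values as Cre/Cre against +/+, since with equal groups it is the same contrast.

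Of all 8 genes, the groups did not overlap for 0 in Cre/+ against +/+ and for 3 in Cre/Cre against +/+, namely *Ush1g*, *Cdh23* and *Myo7a*, all lower. Over the 20504 genes above 0 in any library, 18% did not overlap in Cre/+ against +/+, counting higher and lower together. In Cre/Cre against +/+, 6.75% of these genes were lower without overlap. This second share leaves out genes that were higher, so it is not of the same kind as the first. Against Cre/+, *Cdh23* was lower without overlap, beside 6.13% of these genes. Between Cre/Cre and Cre/+, the log2 fold changes of the 6 tested genes ran from -0.29 (*Ush1g*) to 0.09 (*Adgrv1*), with adjusted p of at least 0.759 (limma).

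**Figure D3:**
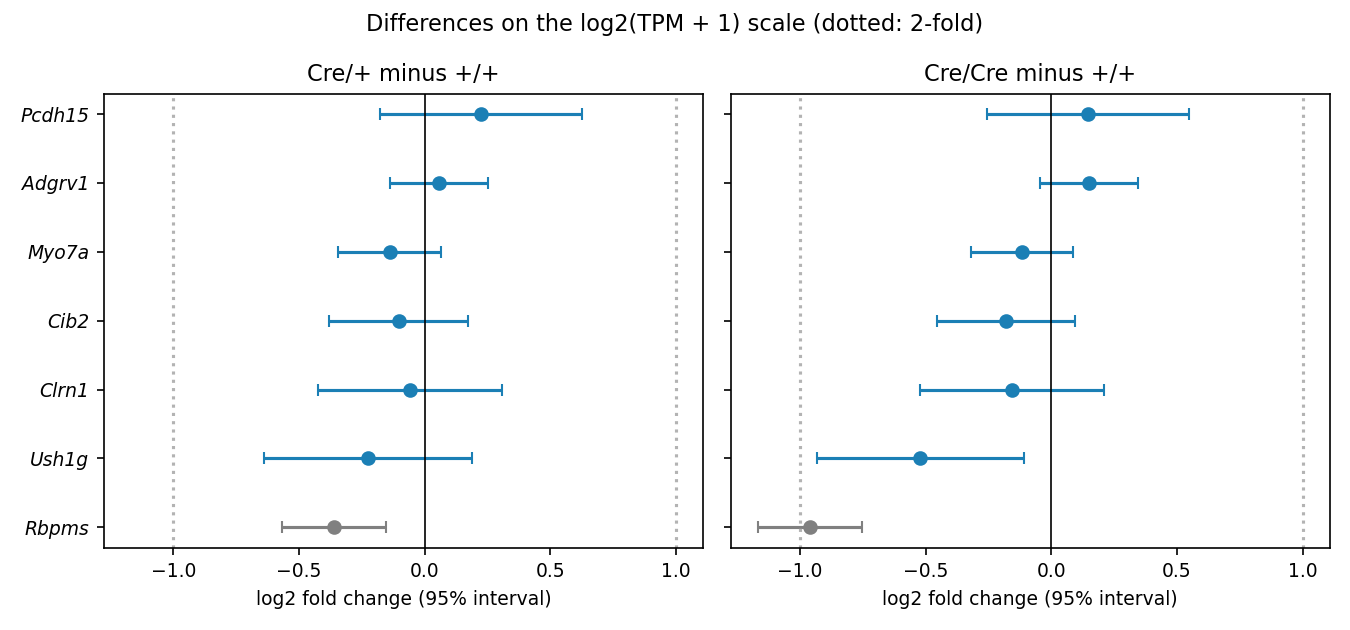
Log2 fold change on the log2(TPM + 1) scale (horizontal axis) with its 95% interval for the 6 tested Usher genes and, in grey, the knock-in gene *Rbpms*, for Cre/+ (left) and Cre/Cre (right) against +/+, with dotted lines at a 2-fold change. The interval of *Ush1g* in Cre/Cre, -0.93 to -0.11, is the only one of the 6 Usher genes shown that leaves out 0.

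The genes also differed in how steady they were. The residual SD of log2(TPM + 1) was 0.114 for *Adgrv1*, 0.175 for *Cib2*, 0.217 for *Ush1g*, 0.237 for *Clrn1* and 0.249 for *Pcdh15*. Thus 4 of the 6 were above the median of 0.130 over all genes, and only *Myo7a* and *Adgrv1* were below. On the TPM scale itself the coefficient of variation over the 9 libraries was widest for *Ush1g* among the 6, at 27.5%, followed by 18.6% for *Pcdh15* and 17.6% for *Clrn1*. The level of *Pcdh15* depended on the measure. Its TPM was 2.32 times that of *Adgrv1*, whereas by deposited coverage for each aligned gigabase the ratio was 1.21. The FPKM of *Pcdh15* was 1.87 to 1.99 times the value its coverage gives, and that of *Ush1c* 2.07 to 2.57 times, while the other 6 lay at 1.00 to 1.04. The order of the 8 genes was the same by either measure.

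**Figure D4:**
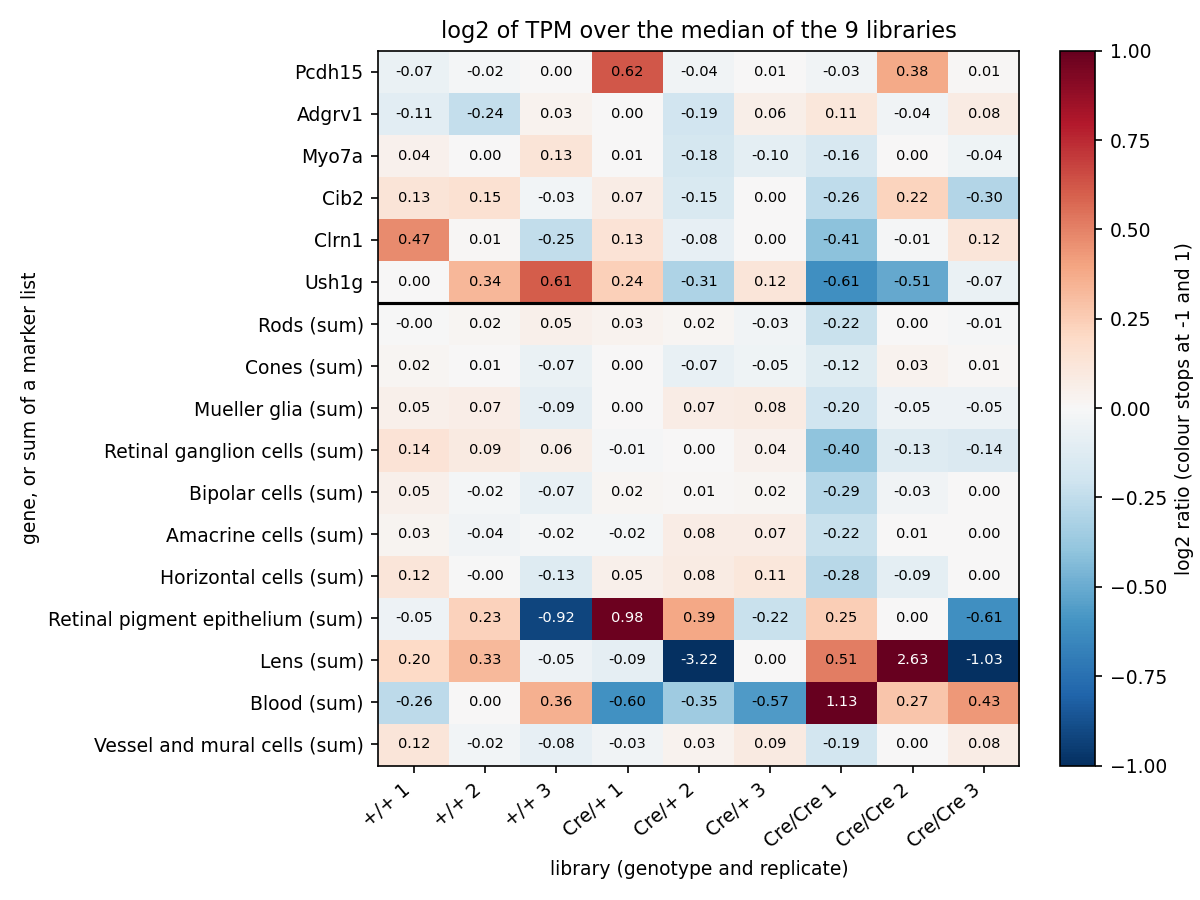
Log2 ratio of each value to the median of the 9 libraries (columns) for the 6 tested Usher genes and for the summed TPM of marker lists of retinal and neighbouring cell types (rows), with the ratio printed in each cell and the colour capped at -1 and 1. *Pcdh15* is highest in Cre/+ replicate 1 (0.62) and Cre/Cre replicate 2 (0.38), and the lens sum in the latter reaches 2.63.

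For each Usher gene, the tested gene with the most similar pattern over the 9 libraries was found by the root-mean-square difference of standardised log2(TPM + 1), in SD units, for which the median over all tested genes was 1.17 to 1.37. This was *Stn1* for *Pcdh15* (0.243), *Tfb1m* for *Adgrv1* (0.291), *1700048O20Rik* for *Myo7a* (0.237) and *Pdcd4* for *Cib2* (0.315). For *Clrn1* it was *Hmgn5* (0.263), for *Ush1g* *Slc2a6* (0.275), for *Cdh23* *Rpf1* (0.363) and for *Ush1c* *Tep1* (0.281). Each is the nearest of 15198 genes over 9 points, and is given as a description. Among the Usher genes themselves the nearest of the 28 pairs was *Ush1g* and *Myo7a*, at 0.736. A search over 15198 genes gives smaller distances than one over 28 pairs, so these values cannot be ranked against those above. *Cdh23* and *Adgrv1* were the farthest apart, at 1.65, with *Adgrv1* and *Cib2* next at 1.62.

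Beyond the 8 genes, 37 genes of related lists were examined, of which 20 were tested and 17 fell below the filter. In the 3 contrasts, 0 of the 20 passed the adjusted p (limma). The contrasts were Cre/+ against +/+, Cre/Cre against +/+ and Cre/Cre against Cre/+. At an unadjusted p under 0.05, 0, 1 and 1 were higher in the same order, beside 4.9%, 1.58% and 2.38% of all genes tested. Likewise 2, 2 and 1 were lower, beside 5.82%, 5.39% and 4.2% of all. The median log2 fold changes were 0.03, -0.08 and -0.06. The partners that the Usher proteins have in hair cells were unevenly present. *Lhfpl5* (mean 6.09 TPM) and *Tmie* (1.74), subunits of the transduction complex, were above the filter, whereas the channel genes *Tmc1* (0 to 0.207 TPM) and *Tmc2* (0 to 0.0574) were not. Their log2 fold changes in Cre/Cre were -0.25 for *Lhfpl5* and -0.26 for *Tmie*, with adjusted p = 0.871 and 0.858 (limma).

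Of the 12 genes of the actin core, tip and motors of stereocilia, 7 were tested and 5 lay below the filter. *Fscn2*, an actin bundler that photoreceptors also use, had a mean of 183 TPM, *Gpsm2* 200, *Eps8* 52.8, *Espn* 50.1, *Pls3* 47.8, *Pls1* 8.65 and *Eps8l2* 1.84. Below the filter, *Myo3b* averaged 0.774 TPM, *Espnl* 0.423, *Myo15* 0.324 and *Xirp2* 0.0988, and *Myo3a* was listed at 0 in all libraries. *Espn*, another bundler, had the smallest adjusted p of the related genes in Cre/+, with mean levels of 55.9 TPM (+/+), 46.9 (Cre/+) and 47.6 (Cre/Cre) and log2 fold changes of -0.25 (limma, adjusted p = 0.396) and -0.22 (limma, adjusted p = 0.655). *Pls1*, a plastin, was the highest of this list in Cre/Cre at 0.27 (limma, adjusted p = 0.704). *Pdzd7*, a scaffold of the ankle link, was at -0.41 in Cre/+ and -0.01 in Cre/Cre (limma, adjusted p = 0.445 and 0.997).

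Relatives of the Usher genes differed widely in level. *Cib1* was at 21.6 TPM, close to *Cib2*, whereas *Cib3* and *Cib4* were listed at 0 in all libraries. *Cib1* had the lowest log2 fold change of the related genes in Cre/Cre, -0.36 (limma, adjusted p = 0.594). *Clrn2* and *Clrn3* did not exceed 0.430 and 0.0687 TPM. *Cdhr1*, a photoreceptor cadherin of the outer segment, had a mean of 797 TPM and lay at -0.02 on the log2 scale in Cre/Cre against +/+. The 5 genes of the intestinal brush border complex, which is built like the Usher network, together summed to 0.515 to 3.19 TPM. *Myrip*, *Rab27a* and *Rab27b*, which work with MYO7A in melanosome transport, had means of 56.3, 11.1 and 11.4 TPM and lay between -0.09 and 0.01 in Cre/Cre. The 5 genes of diseases like Usher syndrome ran from -0.13 (*Hars*) to 0.22 (*Arsg*).

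**Figure D5:**
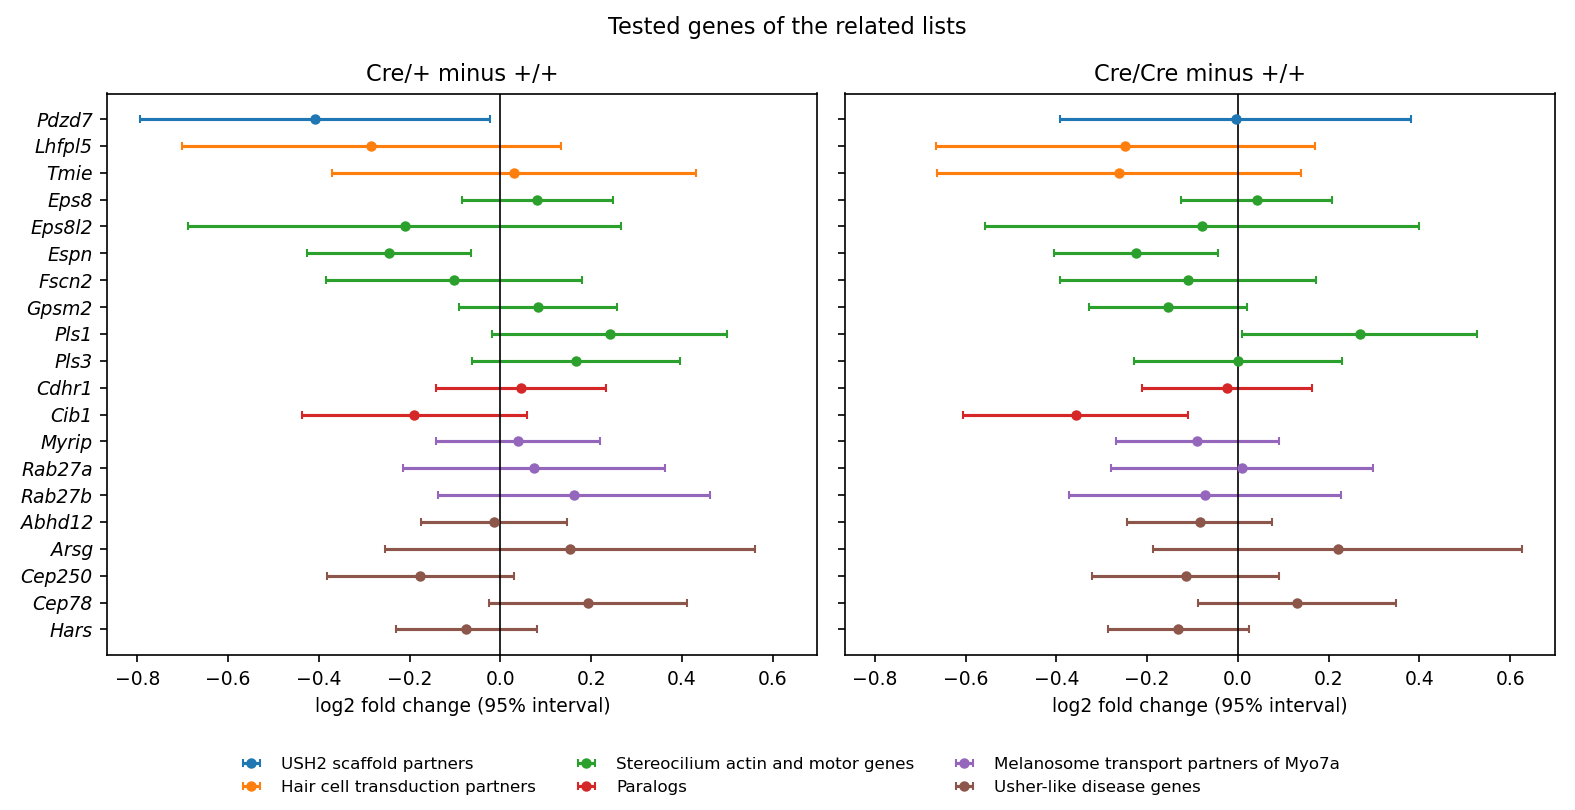
Log2 fold change on the log2(TPM + 1) scale (horizontal axes) with its 95% interval for the 20 tested genes of the related lists, coloured by list, for Cre/+ (left) and Cre/Cre (right) against +/+. The intervals of *Espn* leave out 0 in both panels, at -0.25 and -0.22, and 0 of the 20 genes passed the adjusted p.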

How the data were processed

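Whole retinas at P42 were sequenced as strand-specific poly(A) libraries with paired reads of 150 bases. Per the labels and methods, the authors used Trimmomatic for trimming, HISAT2 for alignment to mm10 and StringTie for the gene tables. Versions, annotation and strand setting are not given in the sources used here. The deposited tables hold TPM, FPKM and coverage as the authors made them. TPM, as deposited, is per length and scaled to the library total. The deposited FPKM is per length and aligned fragments before that scaling, and the deposited coverage is the mean read depth over a gene. The tables used hold no counts, so the DESeq2 test of the methods was not repeated, and counting error per gene is unknown. Aligned gigabases were taken as coverage divided by FPKM, a ratio shared by 57.1% to 57.8% of a library's rows with coverage above 5.

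TPM were summed by gene name. The test, for genes averaging 1 TPM or more, was limma 3.58.1 in R 4.3.3 on log2(TPM + 1), using a trended, robust prior and 1 model of genotype over the 9 libraries (6 residual degrees of freedom). P-values were adjusted by Benjamini-Hochberg over all genes tested, with a limit of 0.05. Fold changes on this scale understate changes of low genes. Single genes were also compared by exact permutation. The steps were tested on simulated data. Named were all 8 members, *Rbpms*, the genes of each related list with the lowest or highest fold change, listed genes with their levels, overlapping genes and the gene most like each member. *Fos*, *Egr1* and related genes given only by their level were chosen after their values were seen. Members and lists were chosen with earlier results of these data known. In these lists, 2 genes are not reported here.

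Alternatives were a pseudocount of 0.1, no filter, a block for the replicate number, a covariate for *Xist*, FPKM, median-ratio scaling, no robust prior, only the genotypes compared, the highest row of each gene name, and each library left out in turn. Coverage for each gigabase, and no filter with a pseudocount of 0.1, were added after seeing the data. Promoter windows are those of RefSeq (GRCm38.p6), cut to the 250 bases before the start. Of the 8 members, 7 had an entry, and *Ush1g* had none. Figures were drawn with matplotlib 3.10.9.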

Additional observations from a re-analysis of the deposited data

How the results depend on the processing

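No Usher gene passed the adjusted p under any of the alternatives, left-out libraries included, and the count passing remained 0 in every contrast, as did that of the related genes. Signs turned for some values, of which the largest in size was -0.16, for *Clrn1* in Cre/Cre against +/+. For *Myo7a* in Cre/Cre against Cre/+ (0.02) the log2 fold change was -0.0022 by FPKM, -0.0031 by coverage for each gigabase and -0.019 to 0.068 with 1 library left out. For *Pcdh15* in the same contrast (-0.08) it was 0.039 with *Xist* as a covariate and -0.21 to 0.13 with 1 library left out. Leaving out single libraries also turned *Adgrv1* in Cre/+ (-0.0073 to 0.13), *Clrn1* in Cre/+ (-0.20 to 0.12), in Cre/Cre against +/+ (-0.30 to 0.017) and against Cre/+ (-0.20 to 0.032), *Cib2* in Cre/Cre against Cre/+ (-0.23 to 0.010), and, without the filter, *Ush1c* in the same contrast (-0.047 to 0.037). The cause was not tested. The count of neighbours in the order of levels whose ranges overlap was 2, and 1 to 2 with a library left out, the 1 arising without Cre/Cre replicate 2, the highest of *Cib2*.

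*Ush1g* in Cre/Cre against +/+ remained below 0 throughout, at -0.69 with a pseudocount of 0.1, -0.34 by FPKM and -0.64 to -0.41 with 1 library left out. *Cdh23* in the same contrast was -0.26 to -0.20 with 1 library left out and -0.73 with a pseudocount of 0.1 and no filter (limma, adjusted p = 0.809). With the replicate number as a block, the *Ush1g* value was -0.52 (limma, adjusted p = 0.691), and the block changed no call. Deviations of libraries that share a number correlated at -0.116 to 0.128 over 9 pairs, and of other libraries at -0.194 to 0.261 over 18, so the numbers were not taken to pair the animals. Depth limits *Cdh23* and *Ush1c*, and 3 libraries a group limit all tests.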
